A study of Mus musculus with 12 samples.

Results

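The genes described here make, activate, store and oxidise arachidonic acid, and were read through acetylation of lysine 27 of histone H3 (H3K27ac), which marks promoters and enhancers in use, in mouse intestinal organoids. They are the 10 genes Fads1, Fads2, Elovl5, Acsl3, Acsl4, Lpcat3, Mboat7, Alox5, Alox5ap and Alox15. An interval of the SEACR peak set belonged to a gene when that gene was the nearest protein-coding gene span of the mm10 build, at a distance of 0 to 50000 bp, and both genes were counted at equal distance. This gave 88 intervals of 166517, and 10 genes of the 18147 that had an interval. All 88 intervals and all 10 genes passed the filter on low scores.

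Organoids grown from isolated crypts in Matrigel, in medium with EGF, Noggin, R-spondin and the GSK3 inhibitor CHIR-99021, were wild type (WT) or Ptger4 knockout (KO). Ptger4 encodes EP4, a receptor for prostaglandin E2 (PGE2). Each genotype received vehicle, arachidonic acid (AA, 25 µM) or PGE2 (50 nM), with 2 CUT&RUN libraries in each of the 6 groups, 12 in all. In CUT&RUN an antibody steers a nuclease to the mark in intact chromatin, and the fragments it cuts free are sequenced. The treatment lasted 3 days by the sample characteristics and 6 days by the treatment protocol, and the design text names a dimethyl form of PGE2. The labels do not say how the knockout was made, or whether replicate libraries were made from separate mice or cultures, so p-values measure only the spread between these libraries, which may be technical. H3K27me3 and H3K4me3, also named in the design text, were not analysed here.

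Cells elongate and desaturate the dietary fatty acid linoleate to arachidonate, couple it to coenzyme A, and store it in membrane phospholipids. Once released by a phospholipase, it feeds the cyclooxygenases, which lead to PGE2, or the lipoxygenases, which lead to leukotrienes and hydroxy fatty acids. In the intestine, absorptive cells handle much of the lipid traffic, whereas the 5-lipoxygenase pathway is best known from myeloid cells and tuft cells.

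Each value is the deposited peak score of an interval in a library, a signal that was never negative; its normalization is unknown, as is the read depth behind it. A gene's level is the mean score over its intervals, weighted by their width, so it is a value per base. Wider intervals had higher scores (Spearman's rho 0.402 over all intervals, a description). Library medians over all genes lay between 0.127 and 0.137 in 11 libraries and at 0.101 in the KO PGE2 replicate 2, which stands apart. Named gene differences between KO PGE2 and vehicle are given with and without it. Counts and medians in comparisons that use KO PGE2 include it unless stated otherwise. Markers of intestinal epithelium were all above the median gene (12 of 12, median level 0.192 against 0.128 for all genes). Immune markers had an interval in 9 of 12 cases (median 0.110), fibroblast markers in 6 of 9 (0.104) and tuft cell markers in 8 of 9 (0.121). In bulk material, fewer cells of a type and less signal per cell cannot be told apart.

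H3K27ac levels over the membrane storage genes Mboat7 and Lpcat3 and the synthesis genes Fads2 and Elovl5 were in the upper part of all genes, and those over the 3 lipoxygenase pathway genes and Acsl4 in the lower part. Mboat7 had the highest level of the 10, 0.188 ± 0.0401 (SD, n = 12), the 95.7 percentile of all genes, followed by Lpcat3 at 0.155 ± 0.0208 (SD, n = 12), the 80.1 percentile of all genes. Fads2 had 0.152 ± 0.0174 (SD, n = 12), the 77.8 percentile of all genes, and Elovl5 0.144 ± 0.0167 (SD, n = 12), the 69.6 percentile of all genes. Acsl3 reached 0.135 ± 0.0118 (SD, n = 12), the 58.2 percentile of all genes, and Fads1 0.125 ± 0.0223 (SD, n = 12), the 46.3 percentile of all genes. At the lower end stood Alox5 at 0.108 ± 0.0109 (SD, n = 12), the 25.3 percentile of all genes, and Acsl4 at 0.108 ± 0.0330 (SD, n = 12), the 25.2 percentile of all genes. Alox5ap had 0.107 ± 0.0147 (SD, n = 12), the 24.8 percentile of all genes, and Alox15 0.0992 ± 0.0198 (SD, n = 12), the 17.5 percentile of all genes. No neighbours in this order differed by more than the SD of their difference over the 12 libraries, and 25 of all 45 pairs did. Mboat7, Lpcat3, Fads2, Elovl5 and Acsl3 were each above Alox5 in 12 of 12 libraries. Fads2 was above the neighbouring Fads1 in 12 of 12 libraries, by 0.0271 ± 0.0115 (SD).

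**Figure D1:**
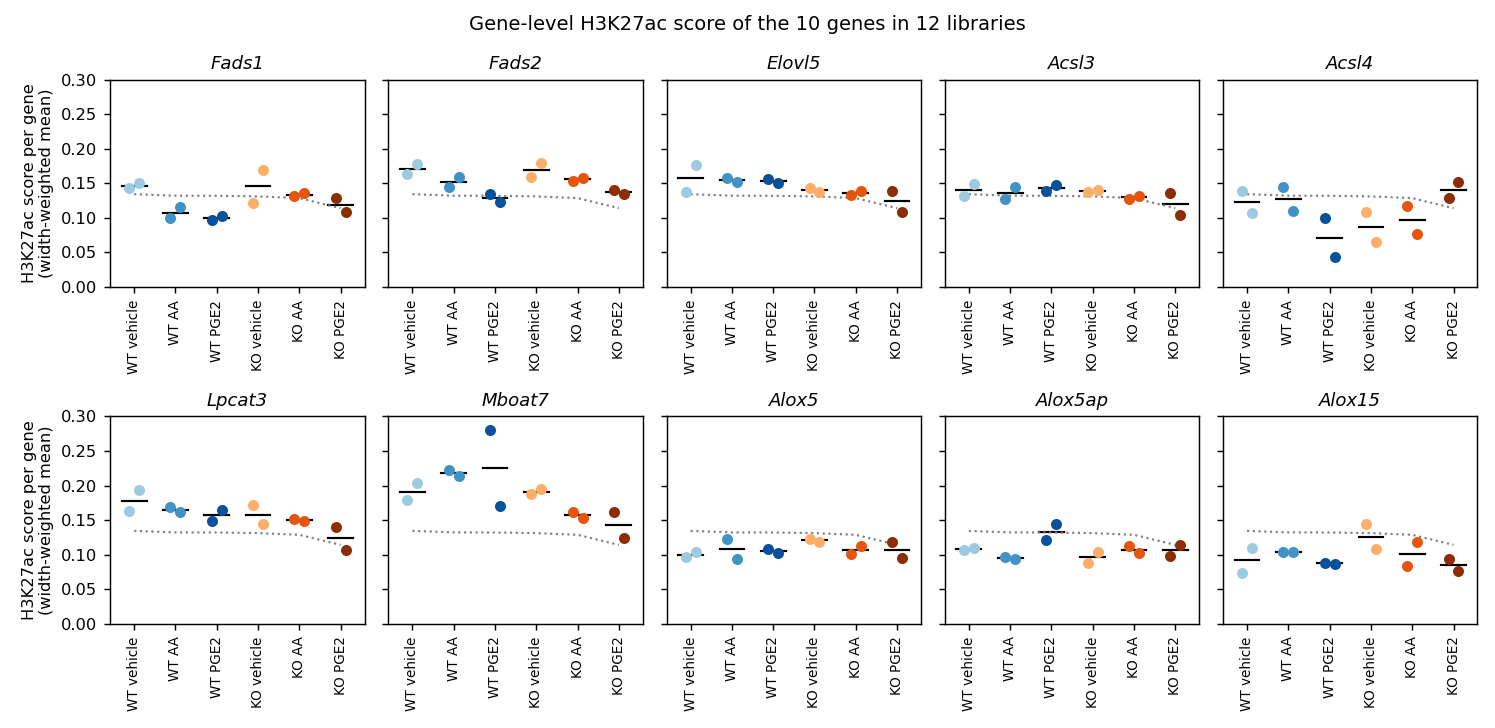
Gene-level H3K27ac score (vertical axis, width-weighted mean peak score per gene) in the 2 libraries of each of 6 groups (points) with the group mean (bar); the dotted line is the mean over the libraries of a group of the median of all genes. Mboat7, Lpcat3 and Fads2 lie above the dotted line in most groups, Alox5 and Alox15 mostly below it, and the Mboat7 libraries span the widest range, 0.124 to 0.280.

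The 88 intervals numbered 20 at Elovl5, 17 at Acsl3, 12 at Fads2, 10 at Lpcat3, 9 at Fads1, 8 at Alox5, 5 at Alox5ap, 3 at Alox15 and 2 each at Mboat7 and Acsl4. Of these, 50 overlapped the gene span and 38 lay outside it. Most lay outside at Alox5ap (1 of 5 over the span), Fads1 (3 of 9) and Acsl3 (6 of 17), so these gene levels include signal from outside the gene. The median score of the 88 was 0.121 against 0.118 for all intervals, and 13 of the 88 exceeded 0.165, the 90th percentile of all intervals. The strongest was no promoter: an Elovl5 interval 3752 bp upstream of the gene (chr9:77909407-77913613) had a mean of 0.246, the 99.5 percentile. None of the 3 Alox15 intervals was above the median of all intervals, whereas both Mboat7 intervals were above its 90th percentile. The 3 intervals closest to the distance limit on its inner side (38936 bp at Fads2, 41848 and 44634 bp at Acsl3) scored 0.111, 0.102 and 0.106, and the 3 closest on its outer side (50146 bp at Acsl3, 52299 and 53751 bp at Elovl5) scored 0.122, 0.139 and 0.117. Gene assignment was shared for 8 intervals: 5 of Acsl3 with Utp14b, 1 of Fads2 with Fads3, and the 2 of Mboat7 with Tmc4 or Tsen34. No interval of the smaller MACS2 peak set (702 intervals) overlapped any of the 88.

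**Figure D2:**
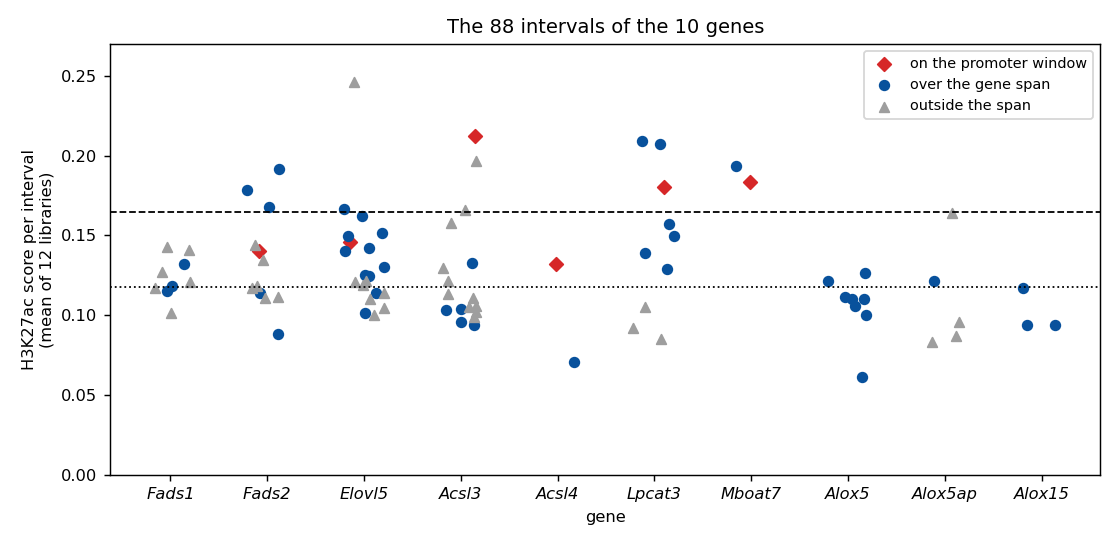
Mean score over 12 libraries (vertical axis) of each of the 88 intervals by gene (horizontal axis), for intervals on the promoter window, elsewhere over the gene span, and outside the span; the dotted and dashed lines are the median (0.118) and 90th percentile (0.165) of all intervals. Points are spread sideways at random for legibility. The highest point is an interval upstream of Elovl5 at 0.246, and promoter intervals of Acsl3, Lpcat3 and Mboat7 lie above the dashed line.

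Promoter windows, 250 bases before to 50 bases after the gene start, were in the RefSeq table (GRCm38.p6, the mm10 assembly) for 7 of the 10 genes: Fads2, Elovl5, Acsl3, Acsl4, Lpcat3, Mboat7 and Alox5. An interval covered the window of 6 of these 7, all but Alox5, whose nearest interval lay 2938 bp away. Over 21044 protein-coding promoters the share with an interval was 50.0%. It was 30.2% for windows with 0 to 9 CpG dinucleotides, 61.3% for 10 to 19 and 66.8% for 20 or more. The 6 covered windows held 20 (Elovl5), 23 (Fads2), 23 (Mboat7), 33 (Acsl3), 33 (Acsl4) and 36 (Lpcat3) CpG dinucleotides, and that of Alox5 held 7. Among intervals on promoters (median score 0.163), that of Acsl3 was at the 92.0 percentile, Mboat7 at 72.3, Lpcat3 at 69.1, Elovl5 at 31.7, Fads2 at 25.5 and Acsl4 at 18.4.

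Printed below are the windows of Lpcat3, which had the most CpG dinucleotides, of Elovl5, the one with a full cAMP response element, and of Alox5, without an interval. Capitals mark CCAAT in Lpcat3 (as ATTGG where it lies on the other strand), TGACGTCA in Elovl5 and GGGCGG in Alox5. Each runs 5′ to 3′ along the gene, and lies at chr6:124662854-124663153 on the plus strand (Lpcat3), chr9:77917115-77917414 on the plus strand (Elovl5) and chr6:116461129-116461428 on the minus strand (Alox5).
Lpcat3: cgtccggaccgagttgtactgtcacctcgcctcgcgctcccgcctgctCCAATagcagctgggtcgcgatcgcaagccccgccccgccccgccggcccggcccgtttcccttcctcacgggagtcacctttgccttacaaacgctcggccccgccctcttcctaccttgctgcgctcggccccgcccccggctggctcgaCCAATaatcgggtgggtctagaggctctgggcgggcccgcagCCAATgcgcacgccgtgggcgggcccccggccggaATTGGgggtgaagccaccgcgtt
Elovl5: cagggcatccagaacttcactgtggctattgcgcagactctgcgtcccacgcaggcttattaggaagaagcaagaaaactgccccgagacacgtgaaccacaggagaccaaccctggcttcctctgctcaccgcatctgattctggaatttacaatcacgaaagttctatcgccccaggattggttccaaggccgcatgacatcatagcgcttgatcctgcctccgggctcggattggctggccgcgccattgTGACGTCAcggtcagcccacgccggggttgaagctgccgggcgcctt
Alox5: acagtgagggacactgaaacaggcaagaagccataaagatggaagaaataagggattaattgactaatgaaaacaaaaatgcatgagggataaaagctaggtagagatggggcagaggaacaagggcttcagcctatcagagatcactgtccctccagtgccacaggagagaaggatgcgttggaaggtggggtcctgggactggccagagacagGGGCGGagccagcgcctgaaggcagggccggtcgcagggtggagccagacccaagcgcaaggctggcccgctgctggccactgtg
Motifs were searched on both strands in all 32851 promoter windows of the table. CCAAT (the CCAAT box) was in 37.4% of them, with 4 matches in Lpcat3, 2 in Elovl5 and 1 in Acsl3. GGGCGG (the GC box) was in 35.7%, with 6 matches in Lpcat3, 5 in Acsl3, 2 in Acsl4 and 1 each in Fads2, Mboat7 and Alox5. TGACGTCA, the palindromic cAMP response element, was in 1.79% and in Elovl5 alone among the 7, with its first base at position 4 counted from the gene start as 1. TATAAA (13.6% of windows) and TCACNCCAC, a sterol regulatory element sequence (1.24%), matched none of the 7. A match is a description of the letters.

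Fads1 and Fads2 encode the delta-5 and delta-6 desaturases that introduce double bonds on the way to arachidonate, and lie next to each other on chromosome 19 (10062765 to 10101503 for Fads2 and 10182877 to 10196874 for Fads1). The Fads1 level was 0.143 and 0.150 in the WT vehicle libraries, 0.0993 and 0.116 with AA and 0.0969 and 0.103 with PGE2, and 0.122 and 0.169 in the KO vehicle libraries, 0.131 and 0.136 with AA and 0.129 and 0.108 with PGE2. Both WT vehicle libraries were above the 4 treated WT libraries, while the KO vehicle libraries spanned both KO AA libraries. For Fads2 the level was 0.163 and 0.179 with vehicle, 0.145 and 0.159 under AA and 0.135 and 0.124 under PGE2 in WT, and 0.159 and 0.180, 0.154 and 0.158 and 0.141 and 0.134 in the same order in KO. In both genotypes the order was vehicle, AA, PGE2 from high to low, with no overlap between the 3 groups. Relative to the median of chromosome 19 the WT groups again did not overlap, but in KO all 3 groups overlapped. On the log2 scale the KO vehicle libraries were at 0.0810 and 0.199, KO AA at 0.118 and 0.100 and KO PGE2 at -0.00493 and 0.163. AA and PGE2 were compared with the same 2 vehicle libraries, so these differences share their reference.

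The Fads1 interval with the highest mean (0.143) lay 10739 bp below the gene, between Fads2 and Fads1 (chr19:10170458-10172138). It scored 0.132 and 0.163 (WT vehicle), 0.101 and 0.0129 (WT AA), 0.124 and 0.0964 (WT PGE2), 0.175 and 0.192 (KO vehicle), 0.188 and 0.201 (KO AA) and 0.157 and 0.171 (KO PGE2). The WT AA replicate 2 had the lowest value, and all 6 KO libraries were above 5 of the 6 WT libraries. At Fads2 the strongest interval (mean 0.191) lay within the gene (chr19:10093264-10097505) and scored 0.209 and 0.193 (WT vehicle), 0.138 and 0.202 (WT AA), 0.198 and 0.173 (WT PGE2), 0.225 and 0.258 (KO vehicle), 0.174 and 0.167 (KO AA) and 0.197 and 0.164 (KO PGE2). The 2 KO vehicle libraries were the highest. Another Fads2 interval within the gene (chr19:10079597-10080960) had the smallest p of the 88 in WT PGE2 against vehicle, with 0.208 and 0.326 with vehicle, 0.137 and 0.123 under AA and 0.108 and 0.0848 under PGE2 in WT, and 0.176 and 0.189, 0.163 and 0.162 and 0.237 and 0.101 in the same order in KO. There the 2 WT vehicle libraries exceeded the 4 treated WT libraries, and the KO PGE2 libraries enclosed the KO vehicle libraries.

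Elovl5 elongates the fatty acid intermediate between the desaturase steps and lies on chromosome 9, 77917365 to 77984519. Its level was 0.138 and 0.177 in the WT vehicle libraries, 0.158 and 0.152 with AA and 0.156 and 0.151 with PGE2, and 0.143 and 0.137 in the KO vehicle libraries, 0.134 and 0.138 with AA and 0.139 and 0.108 with PGE2. Groups within a genotype overlapped, and 5 of the 6 WT libraries were above all 6 KO libraries. The strong upstream interval scored 0.235 and 0.311 with vehicle, 0.307 and 0.335 under AA and 0.247 and 0.193 under PGE2 in WT, and 0.270 and 0.274, 0.185 and 0.210 and 0.241 and 0.146 in the same order in KO. KO PGE2 replicate 2 was the lowest there, and the WT AA libraries were above both WT PGE2 libraries.

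Acsl3 and Acsl4 are long-chain acyl-CoA synthetases, which activate fatty acids by coupling them to coenzyme A, and Acsl4 prefers arachidonate. Acsl3 (chromosome 1, 78657825 to 78707743) had a level of 0.132 and 0.148 in the WT vehicle libraries, 0.127 and 0.144 with AA and 0.140 and 0.147 with PGE2, and 0.138 and 0.140 in the KO vehicle libraries, 0.127 and 0.132 with AA and 0.136 and 0.104 with PGE2. Within each genotype the Acsl3 groups overlapped except that both KO AA and both KO PGE2 libraries were below the KO vehicle pair, and KO PGE2 replicate 2 was the lowest of the 12. Its promoter interval (chr1:78655412-78661765), the second strongest of the 88, scored 0.196 and 0.272 (WT vehicle), 0.182 and 0.243 (WT AA), 0.194 and 0.232 (WT PGE2), 0.223 and 0.272 (KO vehicle), 0.193 and 0.202 (KO AA) and 0.189 and 0.151 (KO PGE2). KO PGE2 replicate 2 was again the lowest library. This promoter interval is also assigned to Utp14b, as is the upstream interval described next, so the signal of neither can be assigned to Acsl3 alone. An upstream Acsl3 interval (chr1:78642935-78645477) scored 0.216 and 0.189 with vehicle, 0.196 and 0.257 under AA and 0.185 and 0.201 under PGE2 in WT, and 0.261 and 0.159, 0.241 and 0.173 and 0.261 and 0.0225 in the same order in KO. The 2 KO PGE2 libraries stood at the highest and the lowest value of the 12 there. Without the higher one, replicate 1, PGE2 minus vehicle in KO was -1.71 on the log2 scale and rested on the low library alone.

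Acsl4 (chromosome X, 142317993 to 142390802) was the most variable of the 10 relative to its mean, with 0.138 and 0.107 in the WT vehicle libraries, 0.145 and 0.110 with AA and 0.100 and 0.0428 with PGE2, and 0.109 and 0.0647 in the KO vehicle libraries, 0.117 and 0.0763 with AA and 0.129 and 0.152 with PGE2. Both WT PGE2 libraries were below the other 4 WT libraries, and both KO PGE2 libraries above the other 4 KO libraries. Its promoter interval (chrX:142389322-142391264) scored 0.171 and 0.157 (WT vehicle), 0.198 and 0.143 (WT AA), 0.116 and 0.0484 (WT PGE2), 0.176 and 0.0922 (KO vehicle), 0.135 and 0.0899 (KO AA) and 0.118 and 0.139 (KO PGE2). A second Acsl4 interval within the gene (chrX:142336104-142337379) had a mean of 0.0709, the 3.17 percentile of all intervals, and scored 0.0890 and 0.0294 with vehicle, 0.0652 and 0.0617 under AA and 0.0753 and 0.0343 under PGE2 in WT, and 0.00756 and 0.0229, 0.0908 and 0.0558 and 0.146 and 0.173 in the same order in KO. The 2 KO PGE2 libraries were the highest of the 12 at this weak interval. Acsl4 had no other interval, so both carry its gene level.

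Lpcat3 and Mboat7 are lysophospholipid acyltransferases: Lpcat3 places polyunsaturated fatty acids into phosphatidylcholine and phosphatidylethanolamine, and Mboat7 places arachidonate into phosphatidylinositol. The level of Lpcat3 (chromosome 6, 124663094 to 124704716) was 0.162 and 0.193 in the WT vehicle libraries, 0.169 and 0.161 with AA and 0.149 and 0.165 with PGE2, and 0.171 and 0.144 in the KO vehicle libraries, 0.152 and 0.148 with AA and 0.141 and 0.107 with PGE2. Both KO PGE2 libraries were below the other 4 KO libraries, and the WT groups overlapped. Its strongest interval lay within the gene (chr6:124677706-124680100) and scored 0.195 and 0.272 (WT vehicle), 0.206 and 0.206 (WT AA), 0.179 and 0.215 (WT PGE2), 0.229 and 0.242 (KO vehicle), 0.203 and 0.202 (KO AA) and 0.175 and 0.185 (KO PGE2). WT vehicle replicate 2 was the highest library, and the lowest were in KO PGE2 and WT PGE2.

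At Mboat7 (chromosome 7, 3677789 to 3693189) the level was 0.179 and 0.203 in the WT vehicle libraries, 0.222 and 0.214 with AA and 0.280 and 0.170 with PGE2, and 0.187 and 0.194 in the KO vehicle libraries, 0.162 and 0.153 with AA and 0.162 and 0.124 with PGE2. The 4 treated KO libraries were below all 6 WT libraries, the KO vehicle pair lay within the WT range, and the 2 WT PGE2 libraries were farther apart than any other pair at this gene. The stronger Mboat7 interval (chr7:3675685-3678238) scored 0.206 and 0.247 (WT vehicle), 0.236 and 0.237 (WT AA), 0.256 and 0.177 (WT PGE2), 0.181 and 0.194 (KO vehicle), 0.172 and 0.140 (KO AA) and 0.140 and 0.135 (KO PGE2), and the promoter interval (chr7:3691722-3695466) 0.161 and 0.173 with vehicle, 0.213 and 0.198 under AA and 0.297 and 0.166 under PGE2 in WT, and 0.192 and 0.194, 0.154 and 0.163 and 0.176 and 0.117 in the same order in KO. Both intervals are also assigned to a neighbour, Tmc4 for the first and Tsen34 for the promoter, so the signal cannot be assigned to Mboat7 alone.

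Alox5, the 5-lipoxygenase that starts leukotriene synthesis (chromosome 6, 116410071 to 116461178), had a level of 0.0967 and 0.103 in the WT vehicle libraries, 0.123 and 0.0937 with AA and 0.108 and 0.102 with PGE2, and 0.123 and 0.118 in the KO vehicle libraries, 0.100 and 0.113 with AA and 0.118 and 0.0948 with PGE2. These values overlapped between most groups, and the KO vehicle pair was above both treated KO groups. The strongest of its 8 intervals (chr6:116410744-116411896, mean 0.127) scored 0.121 and 0.262 (WT vehicle), 0.101 and 0.0771 (WT AA), 0.0824 and 0.116 (WT PGE2), 0.112 and 0.166 (KO vehicle), 0.113 and 0.194 (KO AA) and 0.0829 and 0.0934 (KO PGE2). WT vehicle replicate 2 stood above the other libraries there. Alox5ap encodes FLAP, the membrane protein that presents arachidonate to 5-lipoxygenase (chromosome 5, 149265004 to 149288153). The Alox5ap level was 0.106 and 0.109 with vehicle, 0.0969 and 0.0936 under AA and 0.121 and 0.144 under PGE2 in WT, and 0.0877 and 0.104, 0.112 and 0.102 and 0.0984 and 0.114 in the same order in KO. In WT the order was PGE2, vehicle, AA from high to low with no overlap, while the KO groups overlapped. Its strongest interval, 18601 bp from the gene (chr5:149245417-149246403), scored 0.145 and 0.197 (WT vehicle), 0.175 and 0.175 (WT AA), 0.280 and 0.180 (WT PGE2), 0.152 and 0.111 (KO vehicle), 0.129 and 0.190 (KO AA) and 0.127 and 0.108 (KO PGE2), highest in WT PGE2 replicate 1.

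Alox15, a lipoxygenase that oxidises arachidonate to hydroperoxides (chromosome 11, 70344147 to 70390538), had the lowest level, with 0.0741 and 0.109 in the WT vehicle libraries, 0.104 and 0.103 with AA and 0.0884 and 0.0871 with PGE2, and 0.144 and 0.108 in the KO vehicle libraries, 0.0830 and 0.119 with AA and 0.0931 and 0.0768 with PGE2. KO vehicle replicate 1 was the highest, and both KO PGE2 libraries were below the KO vehicle pair. The strongest of its 3 intervals (chr11:70345296-70346865, mean 0.117) scored 0.0515 and 0.117 (WT vehicle), 0.167 and 0.0928 (WT AA), 0.0595 and 0.197 (WT PGE2), 0.0973 and 0.228 (KO vehicle), 0.0965 and 0.108 (KO AA) and 0.0586 and 0.133 (KO PGE2). Values within a group differed there by as much as between groups.

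Differences were tested with limma on log2(score + pseudocount), fitted over 166471 intervals and 18077 genes with Benjamini-Hochberg adjustment over each. The pseudocount was 0.0579 for intervals and 0.0774 for genes, which understates the change of low values. None of the 88 intervals and none of the 10 genes passed an adjusted p of 0.05 in any of 9 comparisons. Among all features tested, 0% of intervals and of genes passed in AA against vehicle, PGE2 against vehicle and AA against PGE2 in WT, in AA and PGE2 against vehicle in KO, and in both interactions. In KO AA against PGE2, 0.00481% of intervals and 0% of genes passed, and in KO against WT over all treatments 0.0427% of intervals and 0.0719% of genes. A p that misses the threshold does not show that levels were alike, so 95% intervals of the differences are given.

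In WT organoids given AA, the lowest p among the 10 was that of Fads1, with a log2 difference of -0.28 ± 0.12 (SE; 95% interval -0.54 to -0.02; adjusted p = 1.00) against vehicle. Fads2 differed by -0.12 ± 0.10 (SE; 95% interval -0.33 to 0.10; adjusted p = 1.00). At an unadjusted p under 0.05 there were 4 of 88 intervals, where all intervals gave 4.56%, and 1 of 10 genes, where all genes gave 3.82%. Groups did not overlap for 3 genes lower (Fads1, Fads2 and Alox5ap) and 1 higher (Mboat7), where all genes gave 19.7% lower and 15.6% higher. The median over the 10 genes was -0.02, and -0.01 over all genes. The smallest interval p was that of the Fads1 interval at chr19:10170458-10172138, -0.95 ± 0.30 (SE; 95% interval -1.57 to -0.33; adjusted p = 1.00), which was -0.37 without WT AA replicate 2 and -1.53 without WT AA replicate 1.

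With PGE2 in WT organoids, both desaturase genes had lower values than vehicle: the log2 difference was -0.34 ± 0.12 (SE; 95% interval -0.60 to -0.08; adjusted p = 0.760) for Fads1 and -0.27 ± 0.10 (SE; 95% interval -0.48 to -0.05; adjusted p = 0.760) for Fads2. Acsl4 differed by -0.45 ± 0.21 (SE; 95% interval -0.90 to 0.00; adjusted p = 0.794), which was -0.17 without WT PGE2 replicate 2 and -0.73 without WT PGE2 replicate 1, and Alox5ap by 0.18 ± 0.11 (SE; 95% interval -0.06 to 0.42; adjusted p = 0.850). At an unadjusted p under 0.05 there were 7 of 88 intervals (5.80% of all intervals) and 2 of 10 genes (6.21% of all genes). Groups did not overlap for 3 genes lower (Fads1, Fads2 and Acsl4; 22.1% of all genes) and 1 higher (Alox5ap; 17.7%). The 10 genes had a median of -0.02 and all genes of -0.01. At the Fads2 interval chr19:10079597-10080960 the difference was -1.05 ± 0.26 (SE; 95% interval -1.60 to -0.51; adjusted p = 0.713). With the median of chromosome 19 subtracted in each library, Fads1 differed by -0.29 ± 0.10 (SE; adjusted p = 0.431) and Fads2 by -0.22 ± 0.08 (SE; adjusted p = 0.454).

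Directly compared, AA and PGE2 in WT had their smallest p at Alox5ap, with a log2 difference of -0.28 ± 0.11 (SE; 95% interval -0.52 to -0.04; adjusted p = 0.999), followed by Acsl4, with 0.49 ± 0.21 (SE; 95% interval 0.03 to 0.94; adjusted p = 0.999). These were 2 of 10 genes at an unadjusted p under 0.05 (4.90% of all genes), and 4 of 88 intervals met it (5.27% of all intervals). Groups did not overlap for 3 genes higher with AA (Acsl4, Fads2 and Alox15; 19.7% of all genes) and 1 lower (Alox5ap; 17.4%). The interval with the smallest p was the Acsl4 promoter, 0.73 ± 0.30 (SE; 95% interval 0.11 to 1.36; adjusted p = 0.932). Without WT PGE2 replicate 2 that interval was at 0.38 and the Acsl4 gene level at 0.20, and without WT PGE2 replicate 1 they were at 1.09 and 0.77.

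**Figure D3:**
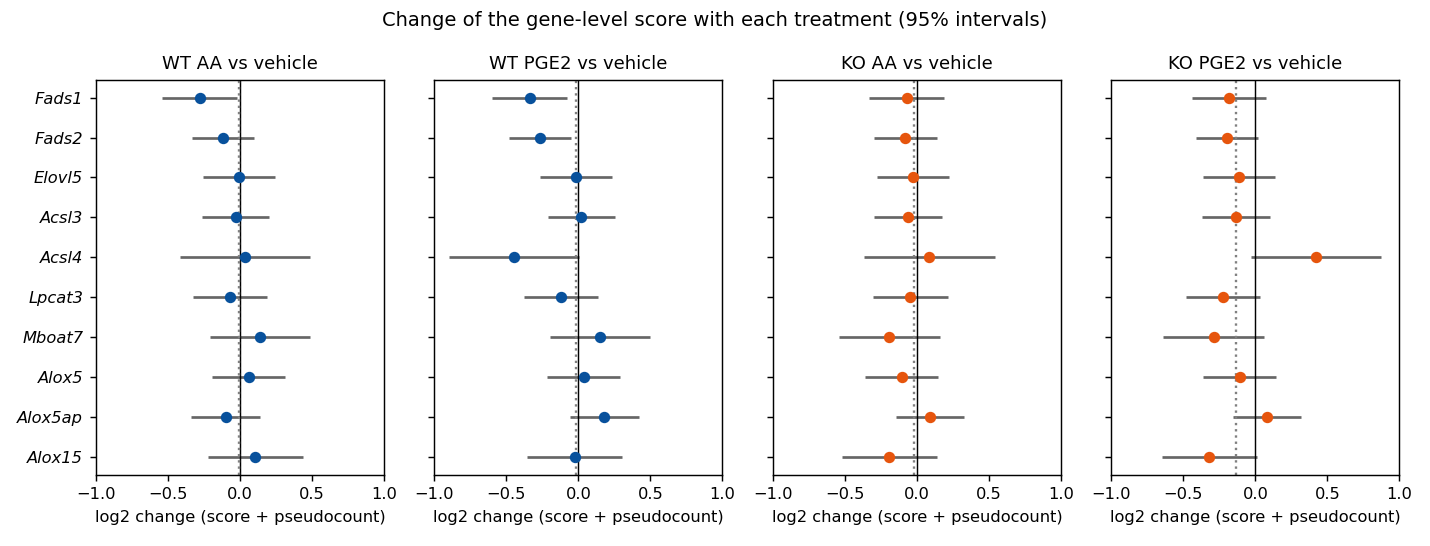
Log2 change of the gene-level score (horizontal axis, on score plus pseudocount) for the 10 genes in 4 comparisons with vehicle; points are estimates, lines 95% intervals from limma, and the dotted line the median of all genes. Fads1 is at -0.28 with AA and -0.34 with PGE2 in WT, Acsl4 at -0.45 with PGE2 in WT and 0.42 with PGE2 in KO, and the dotted line is at -0.14 in the last panel.

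In KO organoids given AA, the smallest p was that of Alox15, with a log2 difference of -0.19 ± 0.15 (SE; 95% interval -0.52 to 0.14; adjusted p = 1.00) against vehicle. It was -0.05 without KO AA replicate 1, -0.34 without KO AA replicate 2, -0.06 without KO vehicle replicate 1 and -0.32 without KO vehicle replicate 2. No gene and 2 of 88 intervals had an unadjusted p under 0.05, where all gave 3.65% and 3.74%. Groups did not overlap for 4 genes lower (Mboat7, Alox5, Fads2 and Acsl3; 23.4% of all genes) and for 0 higher (14.4%). Fads1 differed by -0.07 ± 0.12 (SE; 95% interval -0.33 to 0.19; adjusted p = 1.00) and Fads2 by -0.08 ± 0.10 (SE; 95% interval -0.30 to 0.14; adjusted p = 1.00). The AA response of Fads1 in KO minus that in WT was 0.21 ± 0.17 (SE; 95% interval -0.16 to 0.57; adjusted p = 1.00), so a difference in response between genotypes was not shown. In that interaction 0 genes and 3 of 88 intervals were at an unadjusted p under 0.05 (4.12% and 4.14% of all), and the smallest gene p was that of Mboat7, -0.33 ± 0.22 (SE; 95% interval -0.82 to 0.16; adjusted p = 1.00). An Alox5 interval (chr6:116424729-116426268) had the smallest p in both, at -1.02 ± 0.33 (SE; 95% interval -1.70 to -0.34; adjusted p = 1.00) in KO, where it was -0.64 without KO AA replicate 2, and -1.20 ± 0.47 (SE; 95% interval -2.16 to -0.24; adjusted p = 1.00) in the interaction. Epithelial markers had a lower AA response in KO than in WT in 11 of 12 cases (median -0.17), as had 9527 of all 18077 genes. The part of these markers in the Mboat7 value was not tested.

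With PGE2 in KO organoids, the median over all genes was lower than with vehicle by 0.14 on the log2 scale, so each difference is given with its distance from that median. Alox15 had -0.32 ± 0.15 (SE; 95% interval -0.65 to 0.01; adjusted p = 0.414), which is -0.18 from the median, and -0.19 without KO vehicle replicate 1. Acsl4 had a positive difference, 0.42 ± 0.21 (SE; 95% interval -0.03 to 0.87; adjusted p = 0.418), which is 0.56 from the median, and 0.22 without KO vehicle replicate 2. Mboat7 had -0.29 ± 0.16 (SE; adjusted p = 0.428), Lpcat3 -0.23 ± 0.12 (SE; adjusted p = 0.421) and Fads2 -0.20 ± 0.10 (SE; adjusted p = 0.418), which are -0.15, -0.09 and -0.06 from it, and Fads1 -0.18 ± 0.12 (SE; adjusted p = 0.461), -0.05 from it. Epithelial markers had lower values with PGE2 in 12 of 12 cases (median -0.22), where 14069 of all 18077 genes had lower values. The part of these markers in the values above was not tested. Groups did not overlap for 6 genes lower (Alox15, Fads2, Lpcat3, Mboat7, Acsl3 and Alox5), where all genes gave 37.4%, and for 1 higher (Acsl4), where all gave 5.87%. Acsl4 lies on the X chromosome, whose median relative to the library median also differed. It was -0.26 and -0.24 in KO vehicle, -0.22 and -0.29 in KO AA and -0.16 and -0.06 in KO PGE2. Relative to that chromosome, Acsl4 was at 0.10 and -0.30, 0.16 and -0.14, and 0.18 and 0.42 in the same order. The part of the chromosome in the Acsl4 value was not tested. An unadjusted p under 0.05 was met by 0 genes (12.2% of all) and 10 of 88 intervals (8.68% of all). Without KO PGE2 replicate 2, the median over all genes was -0.04. Alox15 was then at -0.25 (-0.21 from that median), Acsl4 at 0.34 (0.38 from it), Fads2 at -0.18 (-0.14 from it), Mboat7 at -0.17 (-0.13 from it) and Lpcat3 at -0.11 (-0.07 from it), with adjusted p from 0.722 to 0.879 in limma. Fads2 was thus nearer to 0 but farther from the median than with all libraries, as was Fads1, at -0.11 (-0.07 from that median). Leaving out KO PGE2 replicate 1 gave -0.34 for Lpcat3, and leaving out KO vehicle replicate 1 gave -0.14. The largest interval difference by p was at the weak Acsl4 interval chrX:142336104-142337379, 1.58 ± 0.43 (SE; 95% interval 0.70 to 2.46; adjusted p = 0.433), and 1.49 without KO PGE2 replicate 2.

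Of the PGE2 responses, the one at Acsl4 had the smallest p between genotypes, with KO minus WT of 0.87 ± 0.29 (SE; 95% interval 0.23 to 1.51; adjusted p = 0.608), against a median of -0.12 over all genes. This was the 1 gene of 10 at an unadjusted p under 0.05 (7.70% of all genes), with 4 of 88 intervals (6.42% of all intervals). Acsl4 stood at 0.79 without KO PGE2 replicate 2, where the median over all genes was -0.02. It was at 0.59 without WT PGE2 replicate 2, the lowest of the 12 fits that each left out a library. Relative to the median of the X chromosome, Acsl4 was at 0.33 and 0.06 in WT vehicle and -0.02 and -0.60 in WT PGE2. The KO values on that scale are given above. The weak Acsl4 interval gave 1.61 ± 0.60 (SE; 95% interval 0.37 to 2.85; adjusted p = 0.741). Mboat7 had -0.44 ± 0.22 (SE; 95% interval -0.93 to 0.06; adjusted p = 0.651), which was -0.17 without WT PGE2 replicate 1 and -0.70 without WT PGE2 replicate 2. Without KO PGE2 replicate 2 the Mboat7 value was -0.31. Epithelial markers had a lower PGE2 response in KO than in WT in 12 of 12 cases (median -0.25), as had 12781 of all 18077 genes. Their part in the Mboat7 value was not tested. Fads1 and Fads2 had 0.16 ± 0.17 (SE; adjusted p = 0.783) and 0.07 ± 0.14 (SE; adjusted p = 0.894). In KO, AA and PGE2 differed by -0.33 ± 0.21 (SE; 95% interval -0.78 to 0.12; adjusted p = 0.589) at Acsl4, the smallest p, against 0.11 for the median gene. That value was -0.16 without KO AA replicate 2 and -0.50 without KO AA replicate 1. Without KO PGE2 replicate 2 it was -0.26, against 0.015 for the median gene. There 3 of 88 intervals (6.97% of all) and 0 genes (8.74% of all) were at an unadjusted p under 0.05, 3 genes were higher without overlap (32.1% of all) and 1 lower (5.63%). The Alox5ap interval at chr5:149289084-149290089 had the smallest interval p, -1.26 ± 0.39 (SE; 95% interval -2.07 to -0.45; adjusted p = 0.689).

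Across the 3 treatments, the smallest p between KO and WT was that of Mboat7, with a log2 difference of -0.26 ± 0.09 (SE; 95% interval -0.46 to -0.06; adjusted p = 0.183). The mean was 0.212 ± 0.0390 (SD, n = 6) in WT and 0.164 ± 0.0252 (SD, n = 6) in KO, and the ranges overlapped. Elovl5 had -0.14 ± 0.07 (SE; 95% interval -0.29 to 0.00; adjusted p = 0.270) and Lpcat3 -0.14 ± 0.07 (SE; 95% interval -0.29 to 0.01; adjusted p = 0.280). The median over all genes was -0.07, and 5 of the 10 genes were lower and 5 higher. 1 gene of 10 had an unadjusted p under 0.05 (18.7% of all genes), as had 12 of 88 intervals (9.11% of all intervals), and 0 of 10 genes had ranges without overlap (2.15% of all genes lower, 0.177% higher). Mboat7 was at -0.17 without WT PGE2 replicate 1. Without KO PGE2 replicate 2, Mboat7 was at -0.22, Elovl5 at -0.11 and Lpcat3 at -0.10. Of all 18077 genes, 12831 had lower values in KO. Among the epithelial markers, 12 of 12 had lower values in KO, 0 passed the adjusted threshold in limma (smallest adjusted p 0.0690) and 12 had an unadjusted p under 0.05. Their median level ranged from 0.189 to 0.234 over the WT libraries and from 0.124 to 0.191 over the KO libraries, and its part in these differences was not tested.

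Chromosome 19, which holds both desaturase genes, had a higher level in the KO libraries. Relative to the library median, its 641 genes had a median of -0.02 to 0.03 in the 6 WT libraries and 0.06 to 0.10 in the 6 KO libraries, with no overlap. KO minus WT was 0.11 ± 0.07 (SE; 95% interval -0.04 to 0.26; adjusted p = 0.411) for Fads1 and 0.02 ± 0.06 (SE; 95% interval -0.10 to 0.15; adjusted p = 0.849) for Fads2. Without KO vehicle replicate 2 the Fads1 value was 0.06, and that of Fads2 ranged from 0.00318 to 0.0435 over the fits that each left out a library. With the chromosome median subtracted, the differences over all libraries were 0.09 ± 0.06 (SE; adjusted p = 0.457) and 0.01 ± 0.05 (SE; adjusted p = 0.960). Fads1 was above its chromosome's median in 3 of 12 libraries, the 2 WT vehicle libraries and KO vehicle replicate 2, and Fads2 in 10 of 12. The Fads1 interval at chr19:10170458-10172138 had the smallest p of the 88, with KO minus WT of 0.63 ± 0.18 (SE; 95% interval 0.27 to 0.99; adjusted p = 0.229). That value ranged from 0.43 to 0.82 over the fits that each left out a library. With the chromosome median subtracted it was 0.57 ± 0.17 (SE, limma adjusted p = 0.303), and the Mboat7 interval chr7:3675685-3678238 had the smallest p. In that setting 8 of 88 intervals had an unadjusted p under 0.05 in limma, where all intervals gave 8.71%. Acsl4 is on the X chromosome, whose median was -0.27 to -0.18 in WT and -0.29 to -0.06 in KO relative to the library median. KO minus WT was 0.01 ± 0.12 (SE; 95% interval -0.25 to 0.28; adjusted p = 0.957) for Acsl4, and 0.04 ± 0.13 (SE; adjusted p = 0.895) with the chromosome median subtracted.

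**Figure D4:**
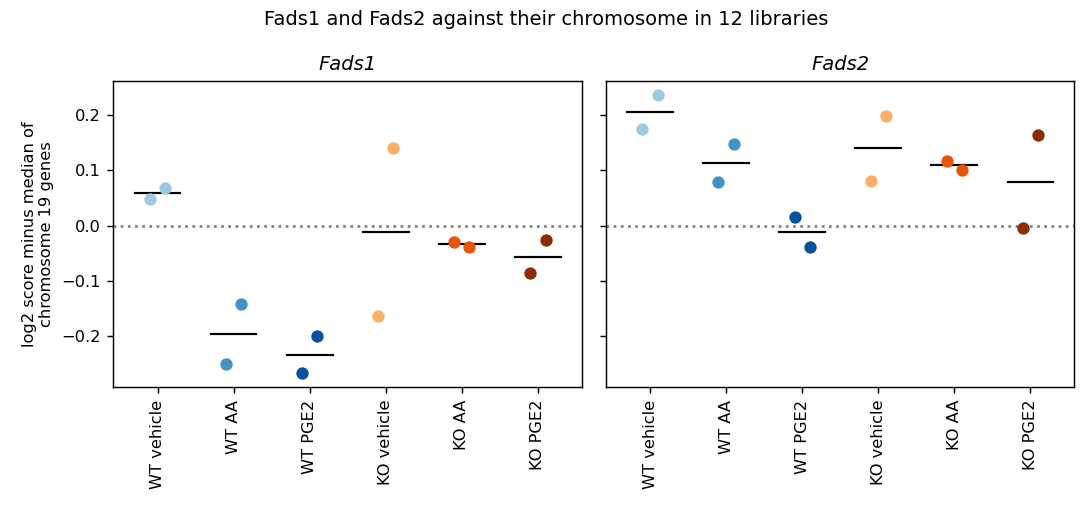
Log2 gene-level score of Fads1 and Fads2 minus the median of chromosome 19 genes in the same library (vertical axis) for the 2 libraries of each group (points) and their mean (bar); the dotted line at 0 is the chromosome's median. The WT AA and WT PGE2 points of Fads1 lie below 0 and those of WT vehicle above it, and Fads2 is above 0 in 10 of 12 libraries.

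Of 44 other listed genes of arachidonate and eicosanoid metabolism, 38 had an interval, with a median level of 0.135. None of the 38 passed the adjusted threshold in any of the 9 comparisons (limma). In WT, 24 of 38 had higher values and 14 lower with AA, and 16 higher and 22 lower with PGE2, where 47.4% and 46.7% of all genes were higher. In KO, 17 had higher values and 21 lower with AA, and 5 higher and 33 lower with PGE2, where 42.8% and 22.2% of all genes were higher. Between KO and WT 13 of 38 were higher in KO, where 29.0% of all genes were. The median of the 38 in KO PGE2 against vehicle was -0.17, where all genes had -0.14, and between KO and WT it was -0.04, where all genes had -0.07. An unadjusted p under 0.05 was met by 1 and 3 of the 38 with AA and PGE2 in WT (3.82% and 6.21% of all genes), 1 and 4 in KO (3.65% and 12.2% of all genes), and 6 between KO and WT (18.7% of all genes). The listed genes include the phospholipases that release arachidonate, other elongation and acyltransferase enzymes, leukotriene synthases and receptors, and the sterol regulators Srebf1 and Insig1.

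Genes whose pattern over the 12 libraries was most like the mean of the 10, after subtraction of each library's median, were Upp2 (Pearson's r 0.953), Olfr342 (0.901) and Tmem161a (0.870), out of 18067 genes compared. These correlations are a description over 12 libraries that share their scaling, and Olfr342 rests on 1 interval.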

How the data were processed

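H3K27ac was measured by CUT&RUN in 12 libraries. Peaks came from SEACR and MACS2 on mm10, per the submitters' processing notes; aligner, settings and normalization: not given in the sources used here. Deposited values are a peak score, a signal per interval and library, never negative, with no counts, so depth is unknown. Library medians of this score ranged from 0.0941 to 0.122. Columns and rows marked EP4KO were read as Ptger4 KO and those marked Control as vehicle.

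SEACR intervals were assigned with bedtools 2.31.1 to the closest span of a protein-coding gene in the RefSeq table (GRCm38.p6), within 50000 bp. Coordinates in the file are 1-based. Gene levels are width-weighted means. The pseudocount was the 10th percentile of non-zero values, and features above it in at least 2 libraries were kept. limma 3.58.1 (R 4.3.3) was fitted to 6 groups with an intensity trend. It was tested on simulated data. Alternatives covered scaling, chromosome median, filter, pseudocount, trend, replicate block, interval strength and leaving out each library.

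The 10 genes, the marker and pathway lists and the named intervals follow rules, but were chosen with earlier results of these data known. Named are, per comparison, the gene and interval with the smallest p, plus Fads1, Fads2 and Acsl4 between genotypes. Member genes at an unadjusted p under 0.1 were added after their values were seen, which makes 31 named differences; other members' values are given as description.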

Additional observations from a re-analysis of the deposited data

How the results depend on the processing

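No member gene passed the adjusted threshold under any alternative, and no member interval did except without KO PGE2 replicate 1. There, 1 interval passed in KO PGE2 against vehicle, in KO AA against PGE2 and in KO against WT, so the counts over the fits that leave out 1 library ranged from 0 to 1. Calls over all intervals also rose in that fit for KO AA against PGE2 and for KO against WT, as given below. The share of all intervals that passed in that fit in KO PGE2 against vehicle is not given here. The single member interval is therefore not read as a result about the members. The member interval was chr1:78642935-78645477 upstream of Acsl3, also assigned to Utp14b, with log2 differences of -1.71, 1.71 and -0.58. The remaining KO PGE2 replicate 2 scored 0.0225 there and the replicate left out 0.261, and the lone library is assumed to vary like the other groups. Of 369 alternative counts 366 stayed at the main value and 3 moved. None of the 31 named differences passed the threshold in the main fit. Of their 626 alternative values, 620 kept their direction and side of the threshold, which says nothing about size. The 6 that reversed were all KO minus WT at Acsl4 (0.01), which was -0.0785 to 0.109 over the fits that leave out 1 library; -0.0785 was without WT PGE2 replicate 2, and the cause was not tested. Of the 22 named gene differences, 13 moved by over 1.5 times when some single library was left out. Sizes also moved over the alternatives that kept all libraries. The weak Acsl4 interval in KO PGE2 against vehicle ranged from 0.66 to 2.59 there. The Acsl4 gene ranged from 0.37 to 1.33 in the PGE2 interaction, and the Fads1 interval in WT AA against vehicle from -1.52 to -0.41. With the replicate number as a block, 0 member intervals and 0 member genes passed, and the genes called between KO and WT were 9 in place of 13 and the intervals 56 in place of 71. Correlations of same-numbered deviations lay between -0.02 and 0.01 over intervals and between -0.10 and 0.03 over genes, 0 of 15 above 0.1. Low correlations over all features cannot tell whether same-numbered libraries share a mouse, culture or batch. Genes called between KO and WT were 26 with quantile normalization, 54 with median centring, 52 with the chromosome median subtracted and 2362 without KO PGE2 replicate 1; the corresponding intervals were 0 without the trend, 31 among the stronger intervals, 1481 without KO PGE2 replicate 1 and 149 without replicate 2, and 12 to 32 without any other single library. Intervals called in KO AA against PGE2 (8) were 0 without the trend, 0 among the stronger intervals, 0 without either KO AA library and 55 without KO PGE2 replicate 1. The score's read depth is unknown, so its precision rests on 2 libraries a group.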
